A study of Mus musculus with 12 samples.

Results

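Tetraspanins are membrane proteins, and 7 of their genes are described here in subcutaneous Renca tumors: Cd9, Cd63, Cd81, Cd82 and Cd151, which most cell types express, and Cd37 and Cd53, which are largely restricted to leukocytes. They were picked by name from the 14496 genes of the deposited table, and all 7 were present and passed the filter on low values. The list holds names only and no measured value as a criterion, but it was chosen with earlier results of these data known. Whole tumors, grown from the murine renal cancer line Renca and sampled together with their stroma, were taken from BALB/C mice 14 days after injection. In 6 of them, called IK here, a second Renca tumor was growing in the kidney, and in the other 6, called SC, the subcutaneous tumor was the only one. The labels name no other treatment and no genotype, and leave unstated whether any tumors shared a mouse. The p-values here therefore reflect the spread among these samples alone.

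Each tetraspanin crosses the membrane several times and carries a small and a large outer loop. Through these loops tetraspanins bind integrins, immunoglobulin-type receptors and each other, which gathers these partners into patches of membrane and steers where they travel in the cell. Cd9, Cd63 and Cd81 are the proteins by which exosomes are most often recognised, Cd151 holds laminin-binding integrins at the basal side of epithelia, and Cd82 is known as a suppressor of metastasis that is also present on activated T cells. Cd37 and Cd53 stand on B cells, T cells and myeloid cells, where they organise adhesion and signalling.

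The stretches around the transcription start are shown to set the leukocyte genes beside the broadly expressed ones. They come from RefSeq windows of GRCm38.p6, each from 250 bases before to 50 bases after a start site, and all 7 genes matched. The deposited table was made on mm9, so these coordinates do not belong to its counts. The motifs were chosen with the sequences in view and searched on both strands: GAGGAAGT, a site of the ETS type bound by PU.1, and GGGCGGGG, a GC box of the Sp type. Of all 32851 windows, 3.20% held the ETS motif and 17.6% held the GC box. Capitals mark the ETS motif in the first 3 sequences and the GC box in the last 3, and each sequence is written 5′ to 3′ along the gene's own strand. The genes are Cd37 (chr7:45238810-45238939, minus strand), Cd53 (chr3:106790120-106790249, minus), Cd82 (chr2:93461972-93462101, minus), Cd9 (chr6:125494731-125494860, minus), Cd81 (chr7:143052650-143052779, plus) and Cd151 (chr7:141467262-141467391, plus).
Cd37: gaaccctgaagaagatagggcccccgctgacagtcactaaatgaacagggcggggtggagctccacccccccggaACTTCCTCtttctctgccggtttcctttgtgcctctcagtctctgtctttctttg
Cd53: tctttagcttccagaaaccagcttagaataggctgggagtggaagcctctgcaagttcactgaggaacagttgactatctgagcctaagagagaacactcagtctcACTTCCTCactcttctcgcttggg
Cd82: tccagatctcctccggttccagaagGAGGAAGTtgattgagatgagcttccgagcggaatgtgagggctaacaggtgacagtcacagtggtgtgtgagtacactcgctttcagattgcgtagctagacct
Cd9: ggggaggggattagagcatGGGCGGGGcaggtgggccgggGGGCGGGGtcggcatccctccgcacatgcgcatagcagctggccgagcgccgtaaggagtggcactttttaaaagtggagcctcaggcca
Cd81: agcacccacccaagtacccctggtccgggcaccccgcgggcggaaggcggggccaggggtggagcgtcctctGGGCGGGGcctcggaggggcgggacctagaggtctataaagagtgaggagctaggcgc
Cd151: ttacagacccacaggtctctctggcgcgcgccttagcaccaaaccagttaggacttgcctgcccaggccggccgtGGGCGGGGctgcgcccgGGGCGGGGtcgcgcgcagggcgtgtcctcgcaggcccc

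Both leukocyte genes held the ETS motif close to the start, in reverse orientation (ACTTCCTC as printed), at -25 to -18 in Cd37 and at 7 to 14 in Cd53. Among the broadly expressed genes it was found only in Cd82, in 1 of 4 windows, at -225 to -218. The GC box occurred at 2 places in Cd9, at 1 in Cd81 and at 2 in 1 of the 2 Cd151 windows, and also once in Cd37, where it is left in lower case, at -53 to -46. Neither motif was in the Cd63 window. The number of CpG dinucleotides did not divide the leukocyte genes from the rest: Cd53 held 4 and Cd37 8, Cd63 held 6, Cd9 18 and Cd81 23, the Cd82 windows 4 to 16 and the Cd151 windows 4 and 20. These matches describe letters in a window and not binding.

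The tumors differed in leukocyte content before any group is considered. The mean log2 CPM (log2 of counts after scaling each tumor to one library size) of 14 pan-leukocyte markers ran from 5.82 to 5.97 in 5 of the IK tumors but was 6.65 in IK replicate 2. Among SC tumors it ran from 6.19 to 6.74 in 5, and was 5.79 in SC replicate 6. Of these 14 markers 13 had a lower mean in IK tumors, and so had all 8 T cell markers, whose mean level ran from 0.11 to 3.19 in IK and from 0.82 to 3.29 in SC. SC replicates 5 and 6 also held the highest and the lowest level of skeletal muscle markers, 5.55 and -1.53, with 4.41 as the highest IK value. The epithelial markers Krt8 and Krt18 of the Renca cells stood at 9.98 and 8.47 in IK and 10.02 and 8.54 in SC, and Epcam and Elf3 at 2.17 and 3.53 in IK and 2.11 and 3.18 in SC. The mean of the 6 epithelial markers tested was 6.26 ± 0.08 in IK and 6.22 ± 0.11 in SC, with 2 markers higher and 4 lower in IK, while none of the 8 skin keratinocyte markers was among the genes analysed here. The part of this varying content in the results below was not tested except where values without a tumor are given.

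All 7 tetraspanins were well measured, from 1252 reads for Cd37 in its lowest tumor to 61755 for Cd63 in its highest. Scaled by the length of the merged exons, Cd63 led with 248 ± 9.66 CPM per kilobase in IK and 242 ± 16.0 in SC tumors (SD, n = 6 each, as for all values below). Cd81 followed at 143 ± 6.63 and 140 ± 14.6, then Cd9 at 101 ± 2.39 and 92.5 ± 2.83, and Cd151 at 83.1 ± 2.32 and 82.5 ± 5.26. Each of these 4 stood apart from its neighbour by more than the SD of either. Cd53 (43.3 ± 10.2 and 50.1 ± 9.81) and Cd82 (44.1 ± 2.16 and 46.3 ± 1.43) differed by less than their spread. Cd37 was lowest, at 7.15 ± 0.529 and 8.12 ± 1.00. With the length of the longest principal transcript instead, Cd82 (72.6 and 76.3) came above Cd53 (43.3 and 50.1) and the rest of the order was the same. Part of the Cd63 reads may belong to a near-identical copy, since the pseudogene Cd63-ps is listed at 8.89 to 10.1% of the Cd63 CPM.

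How far the members varied among tumors differed between the leukocyte and the broad genes. From the lowest to the highest of the 12 tumors Cd82 spanned 1.15-fold, Cd9 1.16-fold, Cd151 1.21-fold, Cd63 1.22-fold and Cd81 1.33-fold. Cd37 spanned 1.53-fold and Cd53 1.79-fold. By SD over the tumors Cd53 ranked at percentile 85.3 of the 14008 genes tested and Cd37 at 67.0, against 14.8 for Cd82, 16.3 for Cd151 and 48.2 for Cd81.

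**Figure D1:**
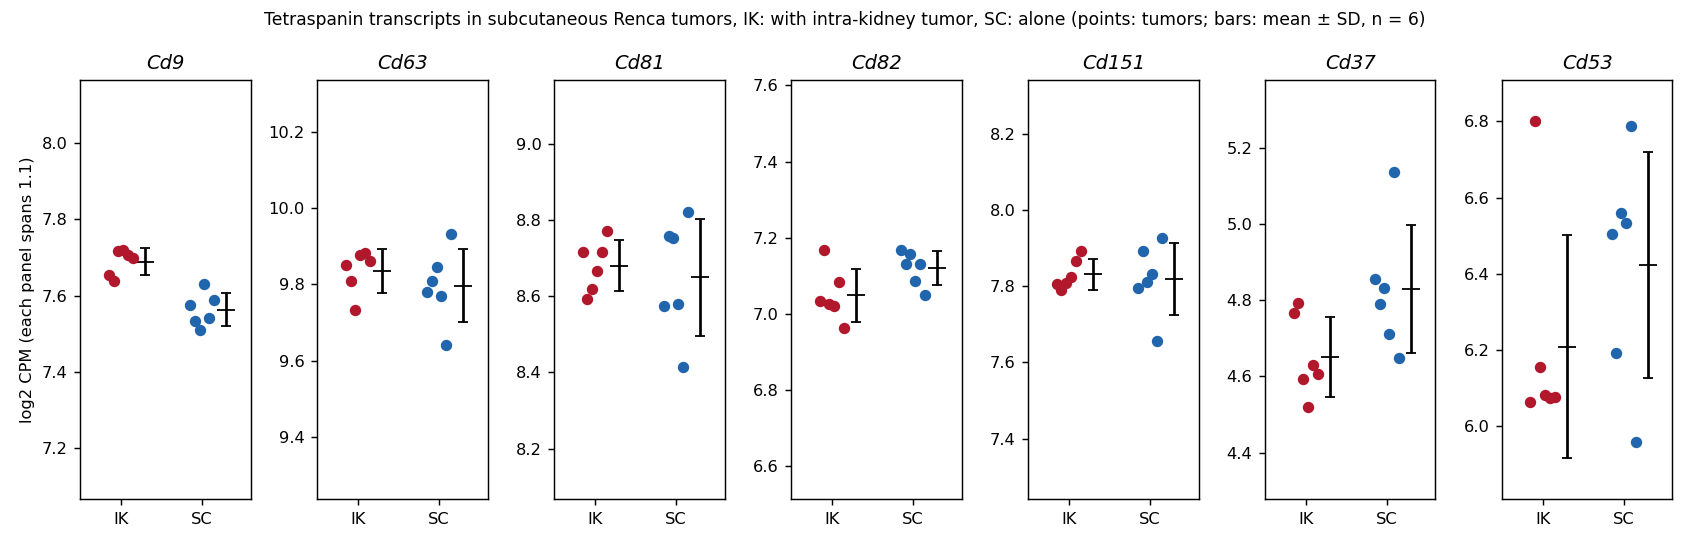
Level of each tetraspanin gene in every tumor as log2 CPM (vertical axis, the same span of 1.1 in each panel); red points are IK tumors, blue points SC tumors, and bars give mean ± SD (n = 6). The Cd9 groups do not overlap, and in Cd53 IK replicate 2 stands at 6.80, above the other 5 IK tumors.

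The comparison of IK with SC tumors asks whether a second tumor in the kidney goes with another level of these genes in the subcutaneous one. None of the 7 passed the test over all genes (limma, Benjamini-Hochberg), and nor did any of the 14008 genes tested (0%), so the differences below are descriptions. At an unadjusted p under 0.05 stood 2 members, Cd9 and Cd37, beside 11.5% of all genes. Of the broadly expressed genes 4 of 5 had a higher mean in IK tumors, and both leukocyte genes had a lower one. The median difference was 0.01 over the members and 0.01 over all genes tested, of which 46.7% were lower in IK tumors.

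Cd9, which binds integrins and many immunoglobulin-type partners, had the clearest separation. Its log2 CPM was 7.66, 7.64, 7.72, 7.72, 7.71 and 7.70 in IK replicates 1 to 6, and 7.58, 7.53, 7.51, 7.63, 7.54 and 7.59 in SC replicates 1 to 6. All 6 IK tumors stood above all 6 SC tumors, by a narrow margin between IK replicate 2 and SC replicate 4. Such a separation with IK higher was found for 39 genes (0.278% of those tested), and Cd9 was the only member with one. The means were 7.69 ± 0.03 and 7.56 ± 0.04, a difference of 0.13 (SE 0.028, 95% interval 0.07 to 0.19), or 9.16% more in IK tumors, with an adjusted p of 0.432 (limma). With limma sample weights, which count deviating tumors less, Cd9 passed at an adjusted p of 0.0369, among 0.957% of genes called higher. Without IK replicate 2 it also passed, at 0.0450 and a difference of 0.14, among 0.143% of genes called higher.

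Cd63, a tetraspanin of late endosomes and exosomes, had log2 CPM from 9.73 through a median of 9.86 to 9.88 in IK tumors and from 9.64 through 9.79 to 9.93 in SC tumors. The SC range enclosed the IK range, with SC replicate 5 lowest and SC replicate 6 highest of all 12. The difference was 0.04 (SE 0.047, 95% interval -0.06 to 0.14), and it became 0.00821 without SC replicate 5, 0.07 without SC replicate 6 and 0.06 without IK replicate 3. Cd63-ps differed by 0.07.

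Cd81, an exosome protein that is also present on lymphocytes, ran from 8.59 through 8.69 to 8.77 in IK and from 8.41 through 8.67 to 8.82 in SC tumors. Again the same SC replicates, 5 and 6, held the lowest and the highest value of all. Its difference of 0.03 (SE 0.064, 95% interval -0.11 to 0.17) turned to -0.02 without SC replicate 5 and was 0.06 without SC replicate 6.

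Cd151, the companion of laminin-binding integrins, ran from 7.79 through 7.82 to 7.89 in IK and from 7.66 through 7.82 to 7.93 in SC tumors. The medians were alike and SC replicates 5 and 6 once more marked both ends. The difference was 0.01 (SE 0.042, 95% interval -0.08 to 0.10), -0.02 without SC replicate 5 and 0.03 without SC replicate 6. These intervals for Cd63, Cd81 and Cd151 leave room for differences of up to 0.17 on the log2 scale, and they do not show that the groups are alike.

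Cd82 went the other way from the rest of the broadly expressed genes. It ran from 6.96 through 7.03 to 7.17 in IK and from 7.05 through 7.13 to 7.17 in SC tumors, and 4 of the IK tumors lay below the lowest SC tumor. IK replicate 2 was the highest of its group, level with the top of the SC group. The means were 7.05 ± 0.07 and 7.12 ± 0.04, and the difference was -0.07 (SE 0.036, 95% interval -0.15 to 0.00498, limma adjusted p = 0.448).

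Cd37, which restrains B and T cell responses and holds integrins in leukocytes, had 4.77, 4.79, 4.59, 4.52, 4.63 and 4.61 log2 CPM in IK replicates 1 to 6. In SC replicates 1 to 6 it had 4.86, 4.79, 4.83, 4.71, 5.14 and 4.65. All 6 IK tumors were below the SC median of 4.81 and 4 were below the lowest SC tumor, while SC replicate 5 was the highest of all. The means were 4.65 ± 0.11 and 4.83 ± 0.17, a difference of -0.18 (SE 0.077, 95% interval -0.34 to -0.01) or 1.13-fold lower in IK tumors, with an adjusted p of 0.432 (limma). Without SC replicate 5 the difference was -0.12.

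Cd53, a tetraspanin of nearly all leukocytes, had 6.06, 6.80, 6.16, 6.08, 6.07 and 6.08 log2 CPM in IK replicates 1 to 6. The SC values were 6.50, 6.19, 6.56, 6.53, 6.79 and 5.96 in the same order. So 5 IK tumors lay close together at the low end, IK replicate 2 was the highest tumor of all, and SC replicate 6 was the lowest. The means were 6.21 ± 0.29 and 6.42 ± 0.30, and the difference of -0.21 (SE 0.15, 95% interval -0.54 to 0.12) had an adjusted p of 0.544 (limma). It was -0.33 without IK replicate 2 (adjusted p = 0.127, limma), -0.32 with sample weights (adjusted p = 0.0789) and -0.14 without SC replicate 5. In whole tumors, fewer leukocytes and less Cd37 or Cd53 RNA per leukocyte cannot be told apart.

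**Figure D2:**
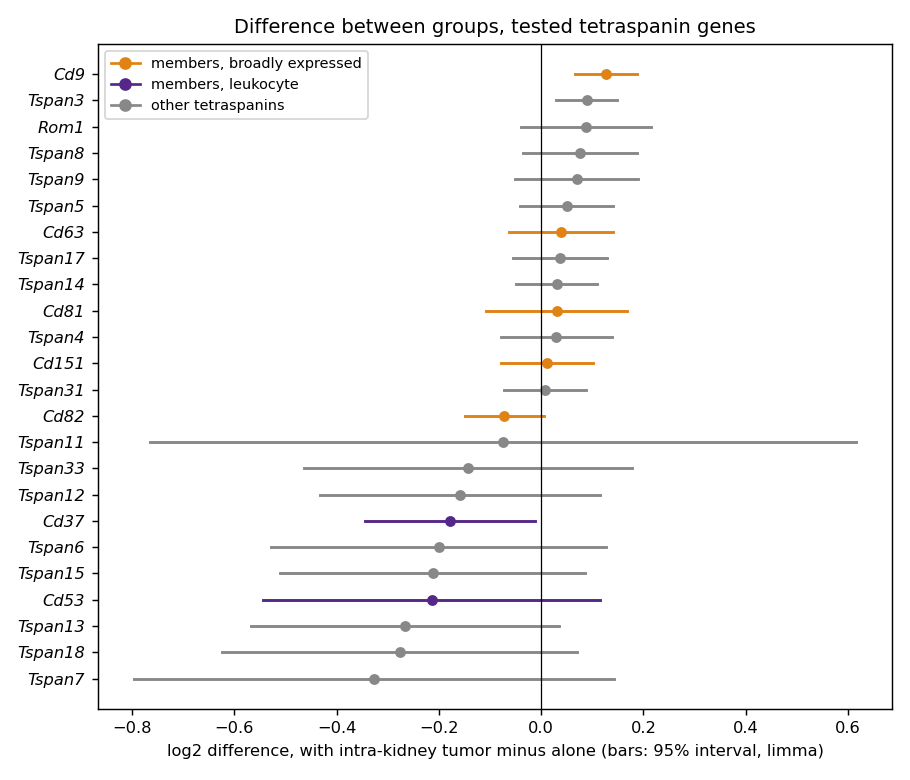
Difference between IK and SC tumors (horizontal axis, log2) for the 7 members and the 17 other tetraspanin genes tested; points are estimates and bars 95% intervals from limma (n = 6 each). Cd9 lies at 0.13 and the leukocyte genes Cd37 and Cd53 at -0.18 and -0.21.

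Set against each other, the leukocyte genes stood lower relative to the broadly expressed ones in most IK tumors. The mean log2 CPM of Cd37 and Cd53 minus that of Cd9, Cd63, Cd81, Cd82 and Cd151 was -2.80, -2.40, -2.81, -2.92, -2.90 and -2.90 in IK replicates 1 to 6. It was -2.50, -2.73, -2.52, -2.56, -2.11 and -2.96 in SC replicates 1 to 6. IK replicate 2 lay within the SC range, with only SC replicate 5 higher, and SC replicate 6 lay below every IK tumor. Set aside after their values were seen, these tumors left 5 IK tumors all below 5 SC tumors, with -2.80 against -2.73 at the nearest. Because the overlapping tumors were removed, this separation was largely built in. The group means were -2.79 ± 0.20 and -2.56 ± 0.28, a difference of -0.22 given as a description. Leaving out single tumors moved it between -0.30 (without SC replicate 6) and -0.13 (without SC replicate 5).

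Among the tumors, Cd53 followed the leukocyte markers most closely. Over the 12 tumors its Pearson r with the 14-gene pan-leukocyte mean was 0.98 (Spearman's rho 0.89, permutation p = 3e-05, adjusted over 14 relations 0.00042). Within IK tumors, where IK replicate 2 lies far from the rest, it was 0.99 (exact permutation p = 0.0569, adjusted 0.180). Within SC tumors it was 0.97 (exact permutation p = 0.00833, adjusted 0.0583), so the relation passed in neither group alone. It was 0.95 without IK replicate 2 and SC replicate 5, the tumors farthest from the median of the markers. Cd37 followed with r = 0.82 (rho 0.78, permutation p = 0.0006, adjusted 0.00355), which became 0.77 without the same tumors (adjusted 0.0520), 0.67 within IK and 0.86 within SC.

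Cd82 moved with the leukocyte markers and not with the other broadly expressed genes. Its r was 0.84 (rho 0.85, permutation p = 0.00108, adjusted 0.00378), it was 0.86 without IK replicate 2 and SC replicate 5 (adjusted 0.0110), 0.91 within IK and 0.66 within SC tumors. With the mean of 8 T cell markers, a panel added after the data were seen, Cd82 reached 0.91 (rho 0.91, permutation p = 0.00015, adjusted over 28 relations 0.00112) and 0.92 without those tumors. These panels themselves move together, with r = 0.96 between the pan-leukocyte and the T cell means and 0.94 with the fibroblast mean. Cd82 had r = 0.79 with the fibroblast mean (rho 0.84, permutation p = 0.00278, adjusted 0.00787), so which of these cells carry its RNA was not tested.

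Cd63, Cd81 and Cd151 ran the opposite way. Their r with the pan-leukocyte mean was -0.69 (rho -0.75, permutation p = 0.00957, adjusted 0.0149), -0.74 (rho -0.78, permutation p = 0.00499, adjusted 0.00940) and -0.71 (rho -0.69, permutation p = 0.00537, adjusted 0.00940). Without IK replicate 2 and SC replicate 5 these were -0.56, -0.52 and -0.46, of the same sign, and no longer passed. How much of that is due to those tumors and how much to the smaller number, 10, was not tested. With the mean of 8 fibroblast markers, also added after the data were seen, r was -0.73 for Cd63 (rho -0.62, permutation p = 0.00626, adjusted over 28 relations 0.0135), -0.84 for Cd81 (rho -0.78, permutation p = 0.00042, adjusted 0.00196) and -0.75 for Cd151 (rho -0.67, permutation p = 0.00281, adjusted 0.00787). Without IK replicate 2 and SC replicate 5, which were the farthest here too, these were -0.58, -0.72 (adjusted 0.0572) and -0.53 and did not pass. Whether the leukocyte or the fibroblast content goes with these genes cannot be told apart, as both panels move together. Within SC tumors the relations with the pan-leukocyte mean were -0.93, -0.88 and -0.93, and within IK tumors -0.28, -0.70 and -0.55. Cd9 had -0.59 (rho -0.50, permutation p = 0.0474, adjusted 0.0553), which did not pass. With the T cell mean, also added after the data were seen, Cd9 had -0.74 (rho -0.71, permutation p = 0.00888, adjusted over 28 relations 0.0178). Without IK replicate 2 and SC replicate 5 this was -0.82 and still passed (adjusted 0.0284). It was -0.83 within IK and -0.38 within SC tumors and passed in neither (exact permutation test, adjusted 0.194 and 0.535). Cd9 was higher and the T cell mean lower in IK tumors, so the r over all tumors also holds the difference between groups.

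The mean of 6 epithelial markers gave the mirror image, itself at r = -0.82 with the pan-leukocyte mean. Cd151 had r = 0.77 with it (rho 0.64, permutation p = 0.00213, adjusted 0.00596) and Cd81 0.61 (rho 0.59, permutation p = 0.0365, adjusted 0.0464). Cd53 had -0.84 (rho -0.69, permutation p = 0.00076, adjusted 0.00355), Cd37 -0.74 (rho -0.66, permutation p = 0.00439, adjusted 0.00940) and Cd82 -0.64 (rho -0.66, permutation p = 0.0253, adjusted 0.0354). Cd63 at 0.51 and Cd9 at 0.45 did not pass (adjusted permutation p = 0.0985 and 0.141). Of all 14 relations with both panels, 11 passed over 12 tumors, 3 without the farthest tumors, 2 within IK and 0 within SC tumors. How many of all genes would pass the same relations was not counted, so these counts do not set the tetraspanins apart. Without SC replicates 3 and 5, which lay farthest on the epithelial mean, Cd53 kept -0.76 (adjusted 0.0477) and Cd151 had 0.57 and did not pass.

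**Figure D3:**
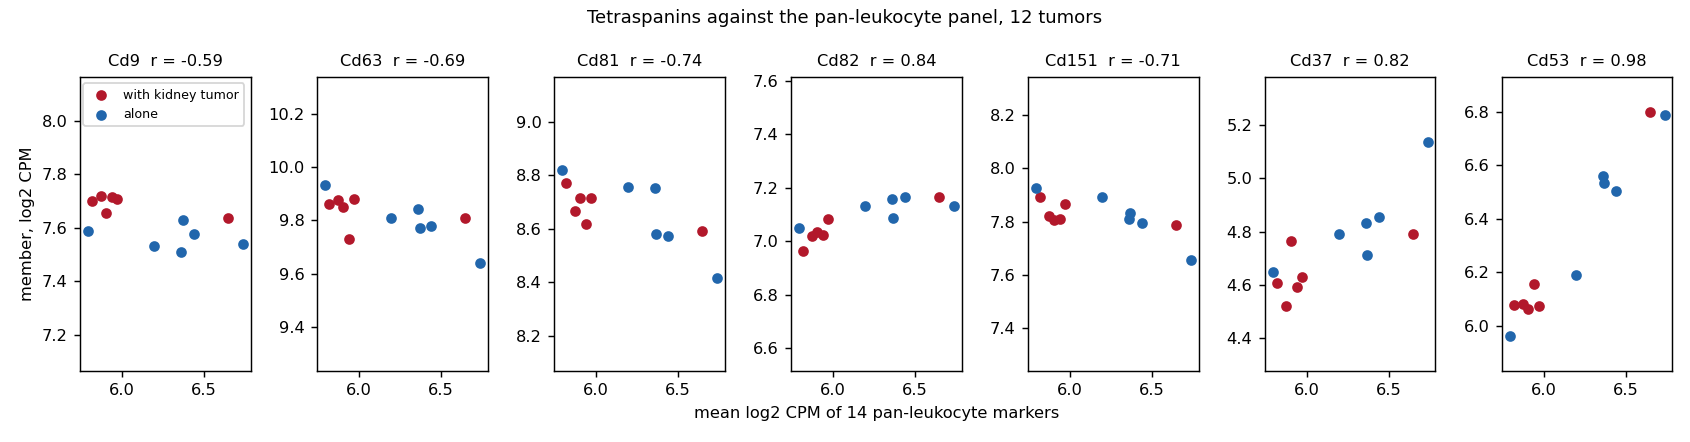
Each tetraspanin gene (vertical axis, log2 CPM) against the mean log2 CPM of 14 pan-leukocyte markers (horizontal axis) in the 12 tumors, red for IK and blue for SC. Cd82, Cd37 and Cd53 slope upward (r = 0.84, 0.82 and 0.98), and Cd63, Cd81 and Cd151 slope downward (r = -0.69, -0.74 and -0.71).

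Between the members themselves, 13 of 21 pairs passed (permutation test, adjusted over the 21 pairs), 6 with a positive and 7 with a negative r. The share among pairs of other genes was not counted. By r with Cd53, Cd82 ranked 1897 and Cd63 11312 of 14007 genes, so many other genes had an r as strong. Cd63, Cd81 and Cd151 formed one set: Cd81 with Cd151 had r = 0.89 (rho 0.78, adjusted permutation p = 0.00315), Cd63 with Cd81 0.88 (rho 0.76, adjusted 0.00315) and Cd63 with Cd151 0.81 (rho 0.65, adjusted 0.0117). Without SC replicates 5 and 6 these were 0.67, 0.66 and 0.36 and did not pass. Cd53, Cd37 and Cd82 formed another, with 0.76 for Cd53 and Cd82 (rho 0.71, adjusted permutation p = 0.0147), 0.74 for Cd37 and Cd53 (rho 0.64, adjusted 0.0117) and 0.68 for Cd37 and Cd82 (rho 0.88, adjusted 0.0232). Cd9 belonged to neither, at 0.27 with Cd63, 0.10 with Cd81 and 0.23 with Cd151. With Cd82 its r was -0.72 (rho -0.73, adjusted permutation p = 0.0218), which did not pass without SC replicates 2 and 3, the tumors farthest from the Cd9 median (adjusted 0.139). With Cd37 r was -0.76 (rho -0.84, adjusted permutation p = 0.0117) and -0.84 without those tumors (adjusted 0.0265). This pair was the only one of the 21 to pass without the farthest tumors. Its r was -0.97 within IK and -0.49 within SC tumors and passed in neither (exact permutation test, adjusted 0.0583 and 0.473). Cd9 was higher and Cd37 lower in IK tumors, so the r over all tumors also holds the difference between groups.

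**Figure D4:**
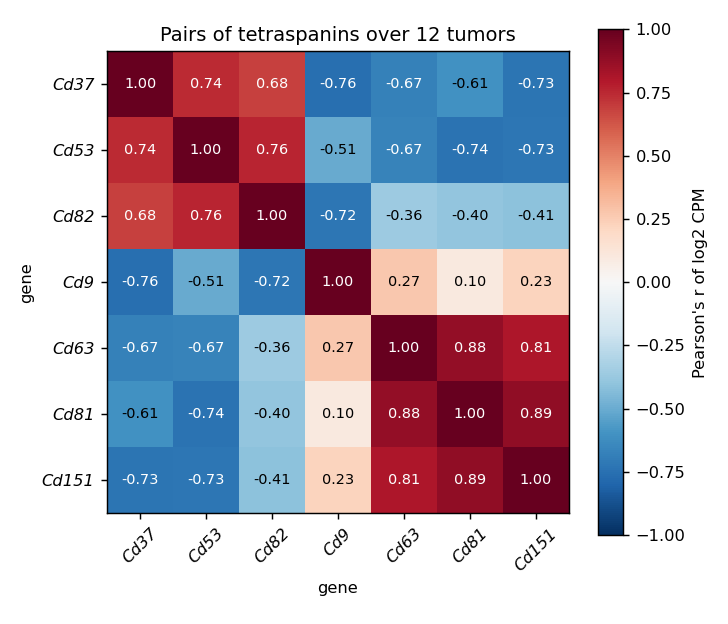
Pearson's r of log2 CPM over the 12 tumors for each pair of members, red for positive and blue for negative values. Cd63, Cd81 and Cd151 form a block at 0.81 to 0.89 and Cd37, Cd53 and Cd82 one at 0.68 to 0.76, with Cd9 outside both.

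The genes whose pattern over the 12 tumors was most like each member, by Pearson r among the 14008 genes tested, were different ones for every member. Nearest to Cd53 were Lcp1 (0.98) and Laptm5 (0.98), both of the pan-leukocyte list, and Tmem173, Sash3 and Ms4a6b (each 0.98). Nearest to Cd82 were the immunoglobulin heavy chain gene Ighm (0.95), Cul9 (0.94), Chpt1 (0.94), the T cell receptor constant gene Trbc1 (0.94) and Aamdc (0.94). Cd37 had Arhgap45 (0.96), the interferon-induced genes Oas2 (0.96), Oas1b (0.95) and Ddx60 (0.95), and AW011738 (0.95). For Cd63 they were Ndfip2 (0.97), Ddrgk1, Cyhr1 and Tmco1 (0.94 each) and Cisd1 (0.93). For Cd81 they were Rnh1 (0.97), Plin3, Rsph3b, Mettl7a2 and Sh3gl3 (0.96 each), and for Cd151 Mlf2 (0.93), Rexo4 (0.92), Snx3 (0.92), Eif3d (0.91) and Timm50 (0.91). Cd9 was most like Rfc5 (0.90), Spp1 (0.90), Mfsd14b (0.89), Mfsd14a (0.89) and Thoc3 (0.89). Members stood nearest to each other within Cd63, Cd81 and Cd151, where they ranked from 25 to 269 of 14007 genes by likeness, while within Cd37, Cd53 and Cd82 they ranked only from 1089 to 2007.

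Other members of the tetraspanin family were divided in direction too. Of 24 listed, 17 were tested, 9 with a higher and 8 with a lower mean in IK tumors. With limma 0 passed and 1 stood at an unadjusted p under 0.05, beside 11.5% of all genes tested. The median difference over the 17 was 0.01. The 8 that were lower had an r of 0.65 to 0.96 with the pan-leukocyte mean over the 12 tumors, and the 9 that were higher had -0.71 to 0.30. That mean was itself lower in IK tumors (6.02 against 6.32), so sorting by direction partly fixes the sign of r. The 8 lower genes were also weakly expressed, with SC means of 1.95 to 3.56 log2 CPM against 2.32 to 6.97 for the 9 higher. Tspan7 (-0.33) and Tspan18 (-0.28) had the largest differences. Tspan3, picked after its values were seen, was the only other tested tetraspanin without overlap, with a difference of 0.09. It ran from 6.4544 to 6.59 in IK and from 6.39 to 6.4539 in SC tumors, so the groups all but touched. Such a separation with IK higher was found for 0.278% of all genes tested. The blood cell tetraspanin Tspan32 missed the filter, with 36 to 177 reads and a median of -0.33 in IK and 0.84 in SC tumors. Its ranges were much alike, -0.53 to 1.27 in IK and -0.55 to 1.48 in SC tumors. Tspan2 missed the filter too, with medians of -0.45 and 0.14.

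The surface partners on which the members act did not pass either. Of 26 listed, 24 were tested, 11 higher and 13 lower, with a median of -0.05. With limma 0 were called, and 4 stood at an unadjusted p under 0.05, beside 11.5% of all genes tested. The T cell coreceptors Cd8a and Cd4, which Cd81 and Cd82 accompany on T cells, had the largest differences, -1.66 (1.21 ± 1.56 in IK, 2.87 ± 1.06 in SC) and -0.85 (3.01 ± 0.65 and 3.86 ± 0.63). Of the 4 at an unadjusted p under 0.05 (limma), Cd8a and Cd4 were lower in IK tumors. Hbegf (0.23) and the integrin chain Itgb4 (0.22) were higher. The integrin chain Itgb1, shared by the partners of Cd9 and Cd151, stood at 9.73 ± 0.04 and 9.70 ± 0.04, and Igsf8, a direct partner of Cd9 and Cd81, at 8.10 ± 0.09 in both groups. Of the 19 listed genes of exosomes and late endosomes, the compartment of Cd63, 16 were tested. Of these 12 were higher and 4 lower, with a median of 0.02, beside 46.7% of all genes tested that were lower in IK tumors. With limma 0 of the list were called and 1 stood at an unadjusted p under 0.05. Stam (0.12) and Flot1 (-0.09) lay farthest out, and syntenin, Sdcbp, which binds the tail of Cd63, differed by 0.00269.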

How the data were processed

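RNA of 12 whole tumors was sequenced. The file the authors deposited gives log2 values of 14496 Ensembl genes, 1 column per tumor. Named in the submitters' processing notes are the build mm9 and the tools limma, HTSeq, TopHat 1.4.1 and CASAVA 1.8.2. Their settings, the gene annotation and the use of strand are not given in the sources used here, so reads of overlapping genes cannot be told apart. The deposited log2 values have the form of log2 CPM with 0.5 reads added: in every tumor 100% of them gave whole reads within 0.001 of a read, 53312559 to 66142468 per tumor. At that depth the spread between tumors limits the precision. Symbols came from GENCODE M21 by identifier (14004 matched, 492 did not), as did exon lengths.

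Genes with a log2 value of at least 0 in at least 6 tumors were kept, which left 14008. IK and SC tumors were compared with limma 3.58.1 in R 4.3.3 (variances trended on the mean level, two-sided, Benjamini-Hochberg over all genes, threshold 0.05), tested on simulated data. Correlations were tested two-sided with 100000 permutations, and exactly within groups of 6. The permutations over all tumors did not keep the groups apart, so they do not separate a group difference from variation within groups. A panel is the mean log2 value of its tested markers. No library looked like a duplicate: over the 30 pairs within groups, counts differed with a chi-square of 13.2 to 164 for each degree of freedom. The members, lists and panels were chosen with earlier results of these data known. The text names all members, the 5 genes most like each by Pearson r, and for each list any member past the threshold or else the 2 of largest difference. Other list members named were chosen after their values were seen. Alternatives were other filters, scalings, variance models, sample weights, limma voom on the recovered reads, a replicate block, and leaving out each tumor. The T cell, macrophage, fibroblast and muscle panels as correlates, and leaving out SC replicates 5 and 6 together, were added after seeing the data.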

Additional observations from a re-analysis of the deposited data

Results flagged for a closer look

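Cd53 in IK replicate 2, at 6.80 log2 CPM, stood apart from the other 5 IK tumors, of which the nearest had 6.16. The gap was 0.876 of the whole range of the group, past Dixon's 95% limit for 6 samples. The same tumor stood apart in the leukocyte minus broad level of the tetraspanins, at -2.40 against -2.80 for the nearest, with a gap of 0.762 of the range. That level contains Cd53, so it is not a separate result, and the gap of Cd37 in this tumor was 0.0947. IK replicate 2 also had the highest pan-leukocyte mean of the IK tumors, 6.65. In all, 16 groups of values were searched, and chance alone marks about 1 in 20.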

How the results depend on the processing

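The deposited values were refitted under 22 alternatives. Of 154 differences of single members, 148 kept direction and side of the threshold, 4 reversed and 2, both of Cd9, newly passed. The reversed ones were Cd81 without SC replicate 5 (-0.0168, with 0.0646 the highest when 1 tumor was left out) and Cd151, which ranged from -0.0208 to 0.0331 when 1 tumor was left out, was -0.000569 without IK replicate 6 and -0.00207 without SC replicates 5 and 6 together. Cd9 ranged from 0.12 to 0.14. Sample weights called 134 genes higher and 411 lower, and 1 member. Variances without the trend called 1 gene higher. Leaving out 1 tumor gave 0 to 20 genes higher, 0 to 117 lower and 0 to 1 members, and only without IK replicate 2 were any called (20, 117 and 1). The cause was not tested. The leukocyte minus broad difference kept its sign in 18 of 18 alternatives. Scaling moved the median of all genes by at most 0.02. Of the 14 member correlations 11 passed over all tumors, 3 without the 2 farthest, 2 in IK and 0 in SC tumors, where 6 tumors limit the test. The share of all genes that would pass was not counted. The r of Cd9 with the epithelial mean became -0.00837 without the 2 farthest, and that of Cd63 -0.0179 in IK tumors. With a replicate block 0 genes and 0 members were called (limma). Deviations of tumors sharing a number correlated at -0.305 to 0.447. Tumors of unlike number were not compared in this way, so whether the numbers pair tumors cannot be decided from these values.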
